A study of Mus musculus with 8 samples.

Results

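The interferon response and antigen processing genes described here are 41 named mouse genes, chosen as a list by their roles: sensors of nucleic acids, transcription factors of the interferon pathway, antiviral effectors and feedback regulators, antigen processing genes and a pair of adhesion molecules. This list and the further gene lists below were chosen with earlier results of these data known. Shares set beside those of all genes are therefore descriptions and not tests. A gene was measured where a probe set of the array carried its symbol and no other, and where several did so the brightest on average was kept. This left 38 of the 41 members among 19937 genes in all. Ifi44 has no such probe set, and Isg15 and Gbp2 have only probe sets that carry several symbols, so these 3 genes have no value. Irf1 is the only member with more than 1 probe set of its own.

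The cells were NMuMG, an untransformed line of mouse mammary gland epithelium, used as the subclone E9, so all arrays come from 1 clone. The groups with TGFβ are written siControl+TGFβ and siKlf4+TGFβ. The cells were transfected with siControl, a negative control siRNA, or with siKlf4, siRNA against the transcription factor Klf4, and were then grown either without TGFβ or for 2 days in TGFβ at 2 ng/ml. TGFβ drives these cells through an epithelial-mesenchymal transition (EMT), the change from epithelial to migratory mesenchymal cells. Each of the 4 groups has 2 Affymetrix gene arrays. Whether both arrays of a group stem from separate transfections is not given in the sources used here, so the p-values rest on a spread between arrays that may be technical. The 2 arrays are called replicate 1 and replicate 2. All 4 groups received siRNA, and no untransfected array was analysed here, so what transfection itself does to interferon genes was not measured.

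Values are log2 intensities after the authors' RMA normalization. Differences are differences of group means on that log2 scale with a standard error (SE), tested with limma over all 19937 genes, and members are called higher or lower where the Benjamini-Hochberg adjusted p is under 0.05. The array medians ran from 4.90 to 5.002. Groups are named as labelled. Klf4 itself stood at 8.60 and 8.43 in siControl, 8.03 and 7.91 in siKlf4, 7.46 and 7.46 in siControl+TGFβ, and 7.43 and 7.24 in siKlf4+TGFβ. Klf4 was lower with siKlf4 without TGFβ (-0.54, SE 0.10, adjusted p = 0.0037), as the label has it. TGFβ is itself known to lower Klf4 in these cells, and Klf4 was lower with the TGFβ label in siControl (-1.05, SE 0.10, adjusted p = 3.6e-04), while the siKlf4 difference on top of TGFβ was not called (-0.13, SE 0.10, adjusted p = 0.44). The check of the TGFβ label went the other way. Smad7, a gene that TGFβ signalling induces, was higher on arrays labelled siKlf4 (1.44 without and 2.00 with TGFβ) and lower on those labelled TGFβ in siControl (-0.44). Ltbp1, read as another such gene, had means of 7.71 in siControl, 10.15 in siKlf4, 6.41 in siControl+TGFβ and 9.86 in siKlf4+TGFβ. Klf4 was lower with either label, so it cannot tell the siKlf4 label from the TGFβ label. Whether these labels were exchanged was not tested. Every direction given here holds for the arrays as labelled.

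Interferons are secreted proteins that switch cells into an antiviral state. Sensors of foreign nucleic acids start their production, and released interferon binds receptors that act through JAK kinases on STAT transcription factors. Type I interferon brings Stat2 and Irf9 into a complex that binds the interferon-stimulated response element (ISRE), while interferon gamma acts on the gamma-activated site (GAS) and induces Irf1. Their target genes include antiviral effectors, the immunoproteasome subunits and peptide transporters that prepare antigen, and the MHC class I molecules that present it. Epithelial cells keep a low tonic level of this program without infection.

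Between siKlf4 and siControl the members moved in both directions. Without TGFβ, 7 of 38 members were higher (18.4%, against 9.98% of all genes) and 5 lower (13.2%, against 9.71%), and with TGFβ 7 were higher (18.4%, against 12.3%) and 4 lower (10.5%, against 11.9%). The median difference over the members was 0.02 without and -0.04 with TGFβ, beside 0.00 and -0.03 over all genes. With 1 array left out, the 5 lower members without TGFβ became 3, except without siKlf4 replicate 1, where they became 4, and the 7 higher with TGFβ became 4 without siControl+TGFβ replicate 2 and 3 without either siKlf4+TGFβ array. The members called in both comparisons were Oasl2, B2m, Parp14, Xaf1 and Irf9, which were higher, and Ifit2 and Gbp4, which were lower, 7 in all. The share of all genes called in both is not given here, so this count has no base to be read against. For Parp14, Xaf1, Irf9 and Gbp4 at least 1 of the calls was lost when single arrays were left out. 20 of the 38 members were called in none of the 5 comparisons made, and 18 in at least 1 (47.4%, against 33.5% of all genes). In bulk RNA, fewer cells of a type and less RNA per cell cannot be told apart.

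**Figure D1:**
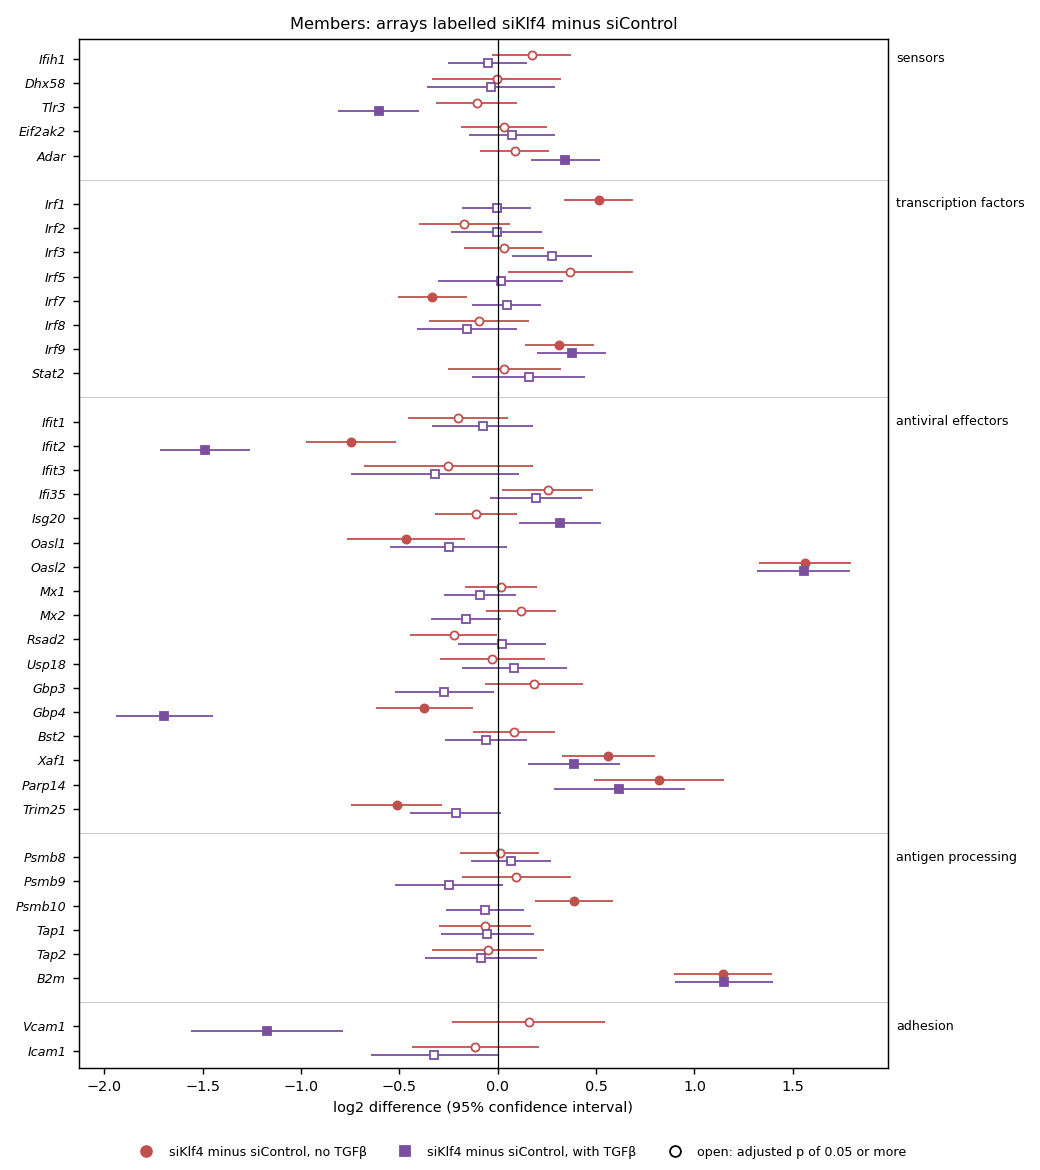
Log2 difference between the arrays labelled siKlf4 and siControl for the 38 measured members, grouped by role, without TGFβ (circles) and with TGFβ (squares), with 95% confidence intervals from limma. Filled symbols have an adjusted p under 0.05. Oasl2 and B2m lie far to the right in both comparisons, Ifit2 and Gbp4 to the left, and most members lie near 0.

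The largest rise among the members was that of Oasl2, an antiviral protein of the oligoadenylate synthetase-like family. Its log2 values were 5.50 and 5.49 in siControl, 6.95 and 7.16 in siKlf4, 5.39 and 5.18 in siControl+TGFβ, and 6.80 and 6.89 in siKlf4+TGFβ. All 4 siKlf4 arrays stood above all 4 siControl arrays. Oasl2 was 2.95-fold higher without TGFβ (1.56, SE 0.10, adjusted p = 1.1e-05) and 2.94-fold higher with it (1.56, SE 0.10, adjusted p = 6.8e-06). The 2 differences differed by -0.01 with a 95% interval from -0.34 to 0.33 (limma, interaction adjusted p = 0.99).

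B2m, which encodes β2-microglobulin, the light chain that every classical MHC class I molecule needs to reach the cell surface, rose with siKlf4 as well. It stood at 9.73 and 9.56 in siControl, 10.92 and 10.66 in siKlf4, 9.65 and 9.59 in siControl+TGFβ, and 10.84 and 10.70 in siKlf4+TGFβ. The siKlf4 arrays did not overlap the siControl arrays under either condition. The rise was 2.21-fold without TGFβ (1.15, SE 0.11, adjusted p = 9.3e-05) and 2.22-fold with it (1.15, SE 0.11, adjusted p = 5.7e-05). The interaction was 0.00, with a 95% interval from -0.35 to 0.36.

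Of the other antigen processing members, Psmb10 was the only one called. Psmb10, a catalytic subunit of the immunoproteasome, stood at 7.23 and 7.35 in siControl, 7.61 and 7.75 in siKlf4, 7.20 and 7.28 in siControl+TGFβ, and 7.19 and 7.16 in siKlf4+TGFβ. Only the siKlf4 arrays without TGFβ stood apart. Psmb10 was higher there by 0.39 (SE 0.09, adjusted p = 0.013), a call that was lost in the fit on the 4 arrays compared alone (adjusted p = 0.058) and without siControl replicate 1 or siKlf4 replicate 2 (adjusted p = 0.072 and 0.077). Psmb8 and Psmb9, the other catalytic immunoproteasome subunits, and Tap1 and Tap2, which pump peptides into the endoplasmic reticulum, were called in none of the 5 comparisons. Psmb8 ranged from 4.14 to 4.40 over the 8 arrays, Psmb9 from 6.36 to 6.72, Tap1 from 5.05 to 5.36 and Tap2 from 5.20 to 5.63.

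A further list of MHC class I and peptide loading held 23 genes, of which 15 were measured. The classical class I heavy chains H2-K1, H2-D1 and H2-L were not among the 15, so they have no value here. Of the 15, 3 were higher with siKlf4 and none lower, both without and with TGFβ (20% against the 9.98% and 12.3% of all genes). The medians were 0.25 and 0.06. None of the 15 was lower by limma, where an unadjusted p under 0.05 and the ordinary analysis of variance gave 1 and 1 without TGFβ and 1 and 0 with it. Erap1, the peptidase that trims peptides for loading, stood at 7.36 and 7.02 in siControl, 8.02 and 7.98 in siKlf4, 7.62 and 7.48 in siControl+TGFβ, and 8.19 and 8.20 in siKlf4+TGFβ. It was higher by 0.81 without TGFβ (adjusted p = 8.8e-04) and by 0.64 with it (adjusted p = 0.0026). Tapbp, or tapasin, which bridges empty class I molecules to the peptide transporter, was at 9.48 and 9.49 in siControl, 10.07 and 10.09 in siKlf4, 9.48 and 9.45 in siControl+TGFβ, and 9.97 and 10.004 in siKlf4+TGFβ. Its arrays split by siRNA with no overlap, and it was higher by 0.60 (adjusted p = 4.1e-04) and 0.52 (adjusted p = 6.6e-04). Both genes kept these calls when any array was left out. The counts without TGFβ fell from 3 to 2, and those with TGFβ ran from 2 to 4, when single arrays were left out. Psme1 and Psme3, subunits of proteasome activators, were lower with TGFβ than without it, Psme3 in siControl (-0.37, SE 0.08, adjusted p = 0.015) and Psme1 in siKlf4 (-0.36, SE 0.08, adjusted p = 0.021). Each lost its call without any of 3 arrays (adjusted p from 0.081 to 0.099 and from 0.054 to 0.18).

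Of 14 subunits of the constitutive proteasome, siKlf4 had 1 lower without TGFβ (7.14%, against 9.71% of all genes) and 2 lower with it (14.3%, against 11.9%). These shares lie near those of all genes. The medians were -0.16 without and -0.12 with TGFβ, beside 0.00 and -0.03 over all genes. Only 2 and 3 of the 14 differences were positive. At an unadjusted p under 0.05 in limma, 5 and 6 were lower. None was higher under either condition by limma, at an unadjusted p under 0.05 (0) or by the ordinary analysis of variance (0). The subunits called lower were Psmb4 (-0.29, adjusted p = 0.041, without TGFβ, and -0.29, adjusted p = 0.036, with it) and Psma1 (-0.28 with TGFβ, adjusted p = 0.038). None of these 3 calls remained when any of the 4 arrays with TGFβ was left out. In the comparison of TGFβ with no TGFβ, Psma5 was higher in siKlf4 (0.34, SE 0.07, adjusted p = 0.015), a call lost without siKlf4 replicate 1 or either siKlf4+TGFβ array (adjusted p from 0.063 to 0.10).

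Among the effectors, Parp14, an ADP-ribosyltransferase, and Xaf1, a proapoptotic partner of the caspase inhibitor XIAP, were higher with siKlf4. Parp14 had values of 5.63 and 5.55 in siControl, 6.54 and 6.28 in siKlf4, 5.41 and 5.21 in siControl+TGFβ, and 6.14 and 5.72 in siKlf4+TGFβ. Its siKlf4 arrays lay above the siControl arrays of the same condition, with a wide gap between the 2 arrays of siKlf4+TGFβ. It was higher by 0.82 (SE 0.15, adjusted p = 0.0034) without and by 0.62 (SE 0.15, adjusted p = 0.013) with TGFβ, and the second call was lost without siControl+TGFβ replicate 2 or siKlf4+TGFβ replicate 1 (adjusted p = 0.097 for each). Xaf1 stood at 4.55 and 4.45 in siControl, 5.18 and 4.94 in siKlf4, 4.69 and 4.53 in siControl+TGFβ, and 4.98 and 5.02 in siKlf4+TGFβ. All 4 of its siKlf4 arrays were above all siControl arrays. Its differences were 0.56 (SE 0.10, adjusted p = 0.0040) and 0.39 (SE 0.10, adjusted p = 0.023). The second was not called without siControl+TGFβ replicate 2, siKlf4+TGFβ replicate 1 or siKlf4+TGFβ replicate 2 (adjusted p = 0.17, 0.091 and 0.12). By the ordinary analysis of variance neither Parp14 difference was called (adjusted p = 0.069 and 0.11), nor was that of Xaf1 with TGFβ (0.096).

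Ifit2, a tetratricopeptide repeat protein that restrains viral RNA, went the other way. Its values were 7.19 and 7.13 in siControl, 6.50 and 6.33 in siKlf4, 7.46 and 7.56 in siControl+TGFβ, and 6.13 and 5.92 in siKlf4+TGFβ. The 4 siKlf4 arrays were the 4 lowest. Ifit2 was 1.68-fold lower without TGFβ (-0.75, SE 0.10, adjusted p = 7.0e-04) and 2.80-fold lower with it (-1.49, SE 0.10, adjusted p = 7.4e-06). Of the same family, Ifit1 ranged from 3.31 to 3.72 and Ifit3 from 3.35 to 4.32 over the 8 arrays, and neither was called in any comparison. Their siKlf4 differences were -0.20 (95% interval from -0.46 to 0.05) and -0.08 (from -0.33 to 0.18) for Ifit1, and -0.25 (from -0.68 to 0.18) and -0.32 (from -0.75 to 0.11) for Ifit3, without and with TGFβ. Both are dim genes, and whether they differ from Ifit2 was not tested.

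Gbp4, a guanylate-binding GTPase that interferon gamma induces, stood at 6.81 and 6.73 in siControl, 6.54 and 6.26 in siKlf4, 7.56 and 7.45 in siControl+TGFβ, and 5.88 and 5.74 in siKlf4+TGFβ. Its highest arrays were siControl+TGFβ and its lowest siKlf4+TGFβ. With TGFβ it was 3.24-fold lower with siKlf4 (-1.70, SE 0.11, adjusted p = 5.3e-06), the largest difference of any member in that comparison. Without TGFβ the difference was -0.37 (SE 0.11, adjusted p = 0.041), and that call was lost when any array but siKlf4 replicate 1 was left out (adjusted p from 0.059 to 0.22), in the fit on the 4 arrays compared alone (0.098), with array weights (0.082) and by the ordinary analysis of variance (0.15).

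Trim25 and Oasl1 were lower with siKlf4 without TGFβ. Trim25, a ubiquitin ligase that activates the RNA sensor RIG-I, had values of 8.68 and 8.50 in siControl and 8.19 and 7.96 in siKlf4, against 8.54 and 8.51 and then 8.30 and 8.33 with TGFβ. It was lower by 0.51 on the log2 scale without TGFβ (difference -0.51, SE 0.10, adjusted p = 0.0061), and the ordinary analysis of variance gave an adjusted p of 0.054. Oasl1, which represses translation of Irf7 mRNA, stood at 6.64 and 6.90 in siControl, 6.13 and 6.48 in siKlf4, 6.43 and 6.55 in siControl+TGFβ, and 6.20 and 6.29 in siKlf4+TGFβ. Its difference without TGFβ was -0.47 (SE 0.13, adjusted p = 0.035), opposite to that of its paralog Oasl2, and the call held only without siControl replicate 1 or siKlf4 replicate 2 among the fits with 1 array left out (adjusted p from 0.053 to 0.18 in the other 6). It was also lost on the 4 arrays alone (0.089), with array weights (0.057) and by the ordinary analysis of variance (0.17).

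Isg20, an antiviral exonuclease, had values of 8.76 and 8.63 in siControl, 8.50 and 8.68 in siKlf4, 8.22 and 8.29 in siControl+TGFβ, and 8.55 and 8.59 in siKlf4+TGFβ. Its siControl arrays with TGFβ were the lowest. It was higher with siKlf4 under TGFβ (0.32, SE 0.09, adjusted p = 0.034), a call lost when any of the 4 arrays compared was left out (adjusted p from 0.093 to 0.19) and by the ordinary analysis of variance (0.083). Mx1, Mx2, Rsad2, Usp18, Bst2, Gbp3 and Ifi35, effectors and regulators that many tissues raise under type I interferon, were called in none of the comparisons. Ifit1, Ifit3, Mx1, Mx2, Usp18, Dhx58 and Gbp3, 7 members, had mean log2 values under 4.18, in the dimmest 30% of genes, and the highest value of any of them was 4.37. No signal over background is given for the probe sets, so for these 7 a low level and a change too small for the probe set cannot be told apart.

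**Figure D2:**
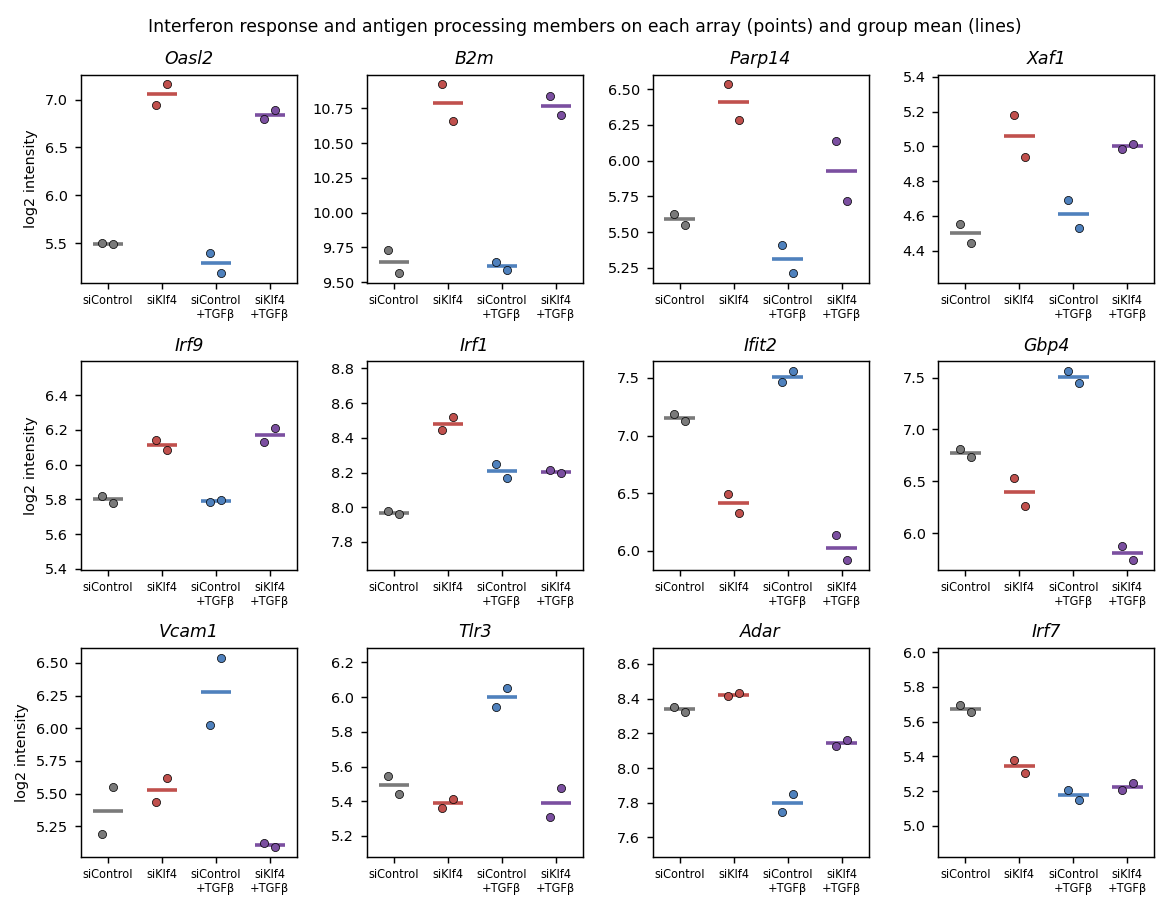
Log2 intensity of 12 members on each of the 8 arrays (points; horizontal lines are the means of 2 arrays) for siControl, siKlf4, siControl+TGFβ and siKlf4+TGFβ, with a separate vertical scale in each panel that does not start at 0. Oasl2, B2m, Xaf1 and Irf9 split by siRNA, Gbp4, Vcam1 and Tlr3 are highest in siControl+TGFβ, and Adar is lower in both groups with TGFβ.

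Of the 8 transcription factors, 2 were higher and 1 lower with siKlf4 without TGFβ (25% and 12.5%, against 9.98% and 9.71% of all genes). With TGFβ, 1 was higher (12.5%, against 12.3%), a share near that of all genes. Irf9, the DNA-binding subunit of the type I interferon complex, stood at 5.82 and 5.78 in siControl, 6.14 and 6.08 in siKlf4, 5.79 and 5.80 in siControl+TGFβ, and 6.13 and 6.21 in siKlf4+TGFβ. All siKlf4 arrays were above all siControl arrays, with differences of 0.31 (SE 0.08, adjusted p = 0.019) and 0.38 (SE 0.08, adjusted p = 0.0059). The first was not called without siControl replicate 2 or siKlf4 replicate 1 (adjusted p = 0.075 and 0.080), nor the second without siKlf4+TGFβ replicate 2 (0.061). The first was also lost on the 4 arrays compared alone (0.089) and with trended and robust eBayes (0.059).

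Irf1, which activates antigen presentation genes, had values of 7.98 and 7.96 in siControl, 8.44 and 8.52 in siKlf4, 8.25 and 8.17 in siControl+TGFβ, and 8.21 and 8.20 in siKlf4+TGFβ. The siKlf4 arrays without TGFβ stood highest. The rise was 0.51 without TGFβ (SE 0.08, adjusted p = 0.0013), while with TGFβ the difference was 0.00, with a 95% interval from -0.18 to 0.17. The second Irf1 probe set gave 0.39 and -0.09. The difference between these effects was -0.52, which missed the threshold (SE 0.11, adjusted p = 0.060).

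Irf7, the factor that amplifies interferon production, was at 5.70 and 5.65 in siControl, 5.38 and 5.31 in siKlf4, 5.21 and 5.15 in siControl+TGFβ, and 5.20 and 5.24 in siKlf4+TGFβ. The siControl arrays without TGFβ stood above all others. Irf7 was lower with siKlf4 without TGFβ (-0.33, SE 0.08, adjusted p = 0.014), a call lost without siControl replicate 1 or siKlf4 replicate 2 (adjusted p = 0.062 and 0.072), on the 4 arrays alone (0.074) and with trended and robust eBayes (0.058). Stat2 was not called with siKlf4, and its values were 7.55 and 7.76 in siControl and 7.70 and 7.68 in siKlf4, a difference of 0.03 with a 95% interval from -0.26 to 0.32. Irf2, Irf3, Irf5 and Irf8 were called in no comparison.

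Of the sensors, none of 5 was called between siKlf4 and siControl without TGFβ by limma, nor at an unadjusted p under 0.05 (0 in both directions) or by the ordinary analysis of variance (0). With TGFβ, Tlr3, the endosomal receptor for viral RNA duplexes, was lower and Adar, which edits such RNA, was higher. Tlr3 had values of 5.55 and 5.44 in siControl, 5.36 and 5.42 in siKlf4, 5.95 and 6.05 in siControl+TGFβ, and 5.31 and 5.47 in siKlf4+TGFβ. Its siControl arrays with TGFβ stood above the other 6, and the difference under TGFβ was -0.61 (SE 0.09, adjusted p = 9.5e-04). Adar stood at 8.35 and 8.32 in siControl, 8.42 and 8.43 in siKlf4, 7.75 and 7.85 in siControl+TGFβ, and 8.13 and 8.16 in siKlf4+TGFβ. Its rise under TGFβ was 0.34 (SE 0.08, adjusted p = 0.0099) and was not called without siControl+TGFβ replicate 1, siKlf4+TGFβ replicate 1 or siKlf4+TGFβ replicate 2 (adjusted p = 0.096, 0.0504 and 0.076). Ifih1 and Dhx58, relatives of RIG-I, ranged from 5.38 to 5.66 and from 3.64 to 4.12 with no call.

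Both adhesion molecules were uncalled between siKlf4 and siControl without TGFβ. Vcam1, which binds leukocyte integrins, had values of 5.19 and 5.55 in siControl, 5.43 and 5.62 in siKlf4, 6.02 and 6.54 in siControl+TGFβ, and 5.12 and 5.09 in siKlf4+TGFβ. Only the siControl arrays with TGFβ were raised, and they differed from each other by more than any other pair of the gene. Vcam1 was 2.25-fold lower with siKlf4 under TGFβ (-1.17, SE 0.17, adjusted p = 8.3e-04). Icam1 ranged from 5.85 to 6.36 and was called in no comparison.

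The comparisons of TGFβ with no TGFβ share their arrays with those of siKlf4, so they are not independent of them. In siControl, 3 of 38 members were higher with TGFβ (7.89%, against 5.81% of all genes) and 5 lower (13.2%, against 6.65%), with a median of -0.01 beside 0.02 over all genes. In siKlf4, 0 were higher (against 6.01%) and 6 lower (15.8%, against 6.87%), with a median of -0.11 beside -0.02. In siKlf4, 1 member was higher with TGFβ at an unadjusted p under 0.05 in limma, and the ordinary analysis of variance called 0 higher. The counts moved with single arrays: in siControl the 3 became 1 without siControl+TGFβ replicate 2 and the 5 became 2 without either siControl+TGFβ array and 3 without siControl replicate 1, and in siKlf4 the 6 became 2 without siKlf4+TGFβ replicate 2, 3 without siKlf4 replicate 1 or either siControl+TGFβ array, and 4 without any of the other 4.

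**Figure D3:**
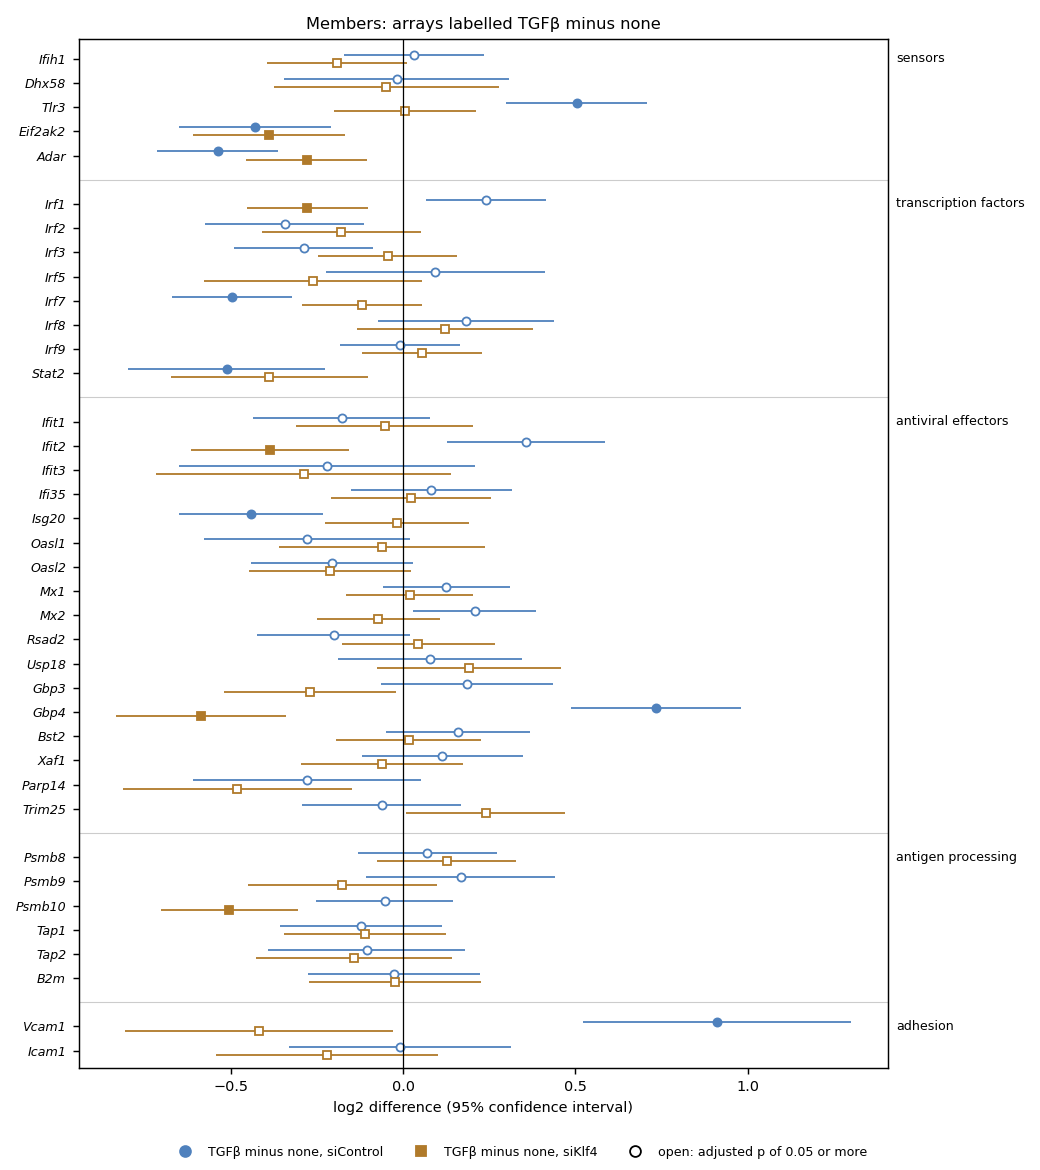
Log2 difference between the arrays labelled TGFβ and those without TGFβ for the 38 measured members, in siControl (circles) and in siKlf4 (squares), with 95% confidence intervals from limma and filled symbols at an adjusted p under 0.05. Gbp4, Tlr3 and Vcam1 lie to the right in siControl and not in siKlf4, and Adar and Eif2ak2 lie to the left in both.

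Vcam1, Gbp4 and Tlr3 were the members higher with TGFβ in siControl, by 0.91 (SE 0.17, adjusted p = 0.0087), 0.73 (SE 0.11, adjusted p = 0.0028) and 0.50 (SE 0.09, adjusted p = 0.0071). Vcam1 lost this call without siControl replicate 1 or siControl+TGFβ replicate 2 (adjusted p = 0.060 and 0.055) and Tlr3 without siControl+TGFβ replicate 2 (0.070). By the ordinary analysis of variance Vcam1 (0.12) and Gbp4 (0.0505) were not called. Ifit2 (0.36) and Irf1 (0.24) missed the threshold here, and both passed it with quantile normalization, with trended and robust eBayes and without the dimmest genes, which makes the count 5 in each.

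The members lower with TGFβ in siControl were Adar, Stat2, Irf7, Isg20 and Eif2ak2. Adar was lower by a difference of -0.54 (SE 0.08, adjusted p = 0.0024) and Irf7 by -0.50 (SE 0.08, adjusted p = 0.0035), and both kept the call without any single array. Stat2, a subunit of the type I interferon complex, stood at 7.15 and 7.14 in siControl+TGFβ and at 7.11 and 7.49 in siKlf4+TGFβ, and its difference in siControl was -0.51 (SE 0.13, adjusted p = 0.030). The Stat2 call was lost without siControl replicate 2 or either siControl+TGFβ array (adjusted p from 0.13 to 0.14). Isg20 was lower by a difference of -0.44 (SE 0.09, adjusted p = 0.014) and lost the call without siControl replicate 1 or either siControl+TGFβ array (adjusted p from 0.065 to 0.11). Eif2ak2, the kinase PKR that halts translation on viral RNA, had values of 7.58 and 7.48 in siControl, 7.67 and 7.45 in siKlf4, 7.15 and 7.04 in siControl+TGFβ, and 7.19 and 7.15 in siKlf4+TGFβ. All 4 arrays with TGFβ were below all 4 without. Its difference was -0.43 in siControl (SE 0.10, adjusted p = 0.020), which was lost without siControl replicate 1 or either siControl+TGFβ array (adjusted p from 0.067 to 0.15). By the ordinary analysis of variance Stat2, Isg20 and Eif2ak2 were not called (adjusted p = 0.16, 0.068 and 0.092).

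In siKlf4, Gbp4 (-0.59, SE 0.11, adjusted p = 0.0073) and Psmb10 (-0.50, SE 0.09, adjusted p = 0.0052) were lower with TGFβ, and only Psmb10 kept its call without each array in turn, Gbp4 losing it without siKlf4+TGFβ replicate 2 (0.074). Eif2ak2 was lower by a difference of -0.39 (SE 0.10, adjusted p = 0.030) and lost the call without siKlf4 replicate 1 or either siKlf4+TGFβ array (adjusted p from 0.12 to 0.17). Ifit2 was lower by a difference of -0.39 (SE 0.10, adjusted p = 0.037) and lost it without siKlf4 replicate 1, siKlf4+TGFβ replicate 2 or either siControl+TGFβ array (adjusted p from 0.061 to 0.26). Adar (-0.28, SE 0.08, adjusted p = 0.045) and Irf1 (-0.28, SE 0.08, adjusted p = 0.046) were close to the threshold, and each lost its call when any of the 8 arrays was left out (adjusted p from 0.051 to 0.23 and from 0.053 to 0.22). On the siKlf4 arrays alone Ifit2, Irf1, Eif2ak2 and Adar were not called (adjusted p = 0.080, 0.096, 0.060 and 0.088), and by the ordinary analysis of variance Ifit2, Gbp4 and Eif2ak2 were not (0.13, 0.074 and 0.11).

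The interaction, which is the siKlf4 difference with TGFβ minus that without, called 0 of 38 members higher (against 0.547% of all genes) and 3 lower (7.89%, against 0.978%). Of the members with a positive interaction, 3 had an unadjusted p under 0.05 in limma, and the ordinary analysis of variance called 0. For the interaction that analysis called 0 of all 19937 genes, so a call lost by it is not particular to the members. The 3 members were Gbp4 (-1.32, SE 0.15, adjusted p = 0.0079), Vcam1 (-1.33, SE 0.24, adjusted p = 0.036) and Ifit2 (-0.74, SE 0.14, adjusted p = 0.043). For Gbp4 and Vcam1, the siControl arrays rose with TGFβ while the siKlf4 arrays had lower means with TGFβ (-0.59 for Gbp4, and an uncalled -0.42 for Vcam1). The Gbp4 call was lost without siKlf4+TGFβ replicate 2 (adjusted p = 0.052) and by the ordinary analysis of variance (0.13), which called 0 of the 3 (0.27 for Vcam1 and 0.22 for Ifit2). The Vcam1 call remained only without siControl+TGFβ replicate 1 among the fits with 1 array left out (adjusted p from 0.0502 to 0.15 in the other 7), and the Ifit2 call in none of the 8 (adjusted p from 0.062 to 0.18) nor with all probe sets tested (0.053).

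Promoters were read to see whether the members that moved share an element. The windows are those of RefSeq for the mouse build GRCm38.p6, from 250 bases before to 50 bases after the start of a gene, and 33 of the 41 members had 1 or more. The ISRE was searched as GAAANNGAAA and the GAS as TTCNNNGAA on both strands, where N is any base and matches may overlap. An ISRE match was in 12 of the 33 members (36.4%) and in 3.99% of all 27025 genes with a window. A GAS match was in 11 (33.3%) and in 9.55% of all genes. The members were listed as interferon response genes, so higher shares than over all genes come with that choice. They do not bear on which members moved. Of the 10 measured members with an ISRE match, B2m, Stat2 and Eif2ak2 were called in at least 1 comparison and the other 7, Ifit1, Ifit3, Irf2, Rsad2, Ifih1, Gbp3 and Bst2, in none. Of the 11 measured members with a GAS match, 5 were called, which were Ifit2, Isg20, Irf1, Eif2ak2 and Adar. Of the 12 measured members with a window and neither match, 8 were called, among them Oasl2, Irf7, Irf9, Xaf1 and Psmb10. Beside these counts, 47.4% of the measured members and 33.5% of all genes were called in at least 1 comparison. Whether calls go with either match was not tested. A match is a description of letters, and binding was not analysed here.

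The 160 bases before the start of 6 members are given below, 5′ to 3′ on the strand of the gene, with matches in capitals and the rest in lower case. B2m and Irf1 are shown because they rose, with an ISRE and a GAS match, Oasl2 because it had the largest rise and holds neither, and Ifit1, Ifit3 and Bst2 because each holds 2 ISRE matches and was called in no comparison. These 6 were chosen after their values were seen. An ISRE on the other strand reads TTTCNNTTTC, as in Ifit1 and Ifit3, and in Bst2 a GAS match runs into an ISRE match. The windows are chr2:122147527-122147686 on the plus strand for B2m, chr11:53769854-53770013 (plus) for Irf1, chr5:114896774-114896933 (plus) for Oasl2, chr19:34640729-34640888 (plus) for Ifit1, chr19:34583369-34583528 (plus) for Ifit3 and chr8:71537473-71537632 (minus) for Bst2.
B2m: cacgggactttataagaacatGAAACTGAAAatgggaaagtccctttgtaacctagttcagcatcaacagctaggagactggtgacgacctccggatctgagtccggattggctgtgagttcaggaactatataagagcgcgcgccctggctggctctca
Irf1: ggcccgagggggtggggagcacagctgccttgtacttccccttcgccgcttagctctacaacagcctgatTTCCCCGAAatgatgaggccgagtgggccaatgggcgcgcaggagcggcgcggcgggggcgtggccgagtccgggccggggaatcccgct
Oasl2: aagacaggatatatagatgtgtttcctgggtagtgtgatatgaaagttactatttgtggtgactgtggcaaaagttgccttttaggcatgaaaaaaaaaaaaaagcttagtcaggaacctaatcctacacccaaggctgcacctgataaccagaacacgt
Ifit1: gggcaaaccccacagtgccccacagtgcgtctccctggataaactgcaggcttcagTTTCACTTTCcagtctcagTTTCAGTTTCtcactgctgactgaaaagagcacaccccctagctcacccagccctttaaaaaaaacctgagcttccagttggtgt
Ifit3: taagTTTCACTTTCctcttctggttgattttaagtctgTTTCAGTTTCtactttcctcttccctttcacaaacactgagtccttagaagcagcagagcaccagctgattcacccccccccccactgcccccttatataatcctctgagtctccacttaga
Bst2: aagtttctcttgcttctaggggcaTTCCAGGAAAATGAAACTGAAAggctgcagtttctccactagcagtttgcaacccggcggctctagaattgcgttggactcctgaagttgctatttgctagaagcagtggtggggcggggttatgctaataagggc

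No interferon gene was called. Of 14 interferon genes measured, 0 were called in any of the 5 comparisons. At an unadjusted p under 0.05 in limma, 1 was higher with TGFβ in siControl and 0 elsewhere, and the ordinary analysis of variance called 0. Ifnb1, which encodes interferon beta, ranged from 3.37 to 3.82 over the 8 arrays. Ifnb1, Ifna4, Ifna9, Ifna11, Ifna12, Ifna13, Ifnab, Ifnk and Ifne had mean log2 values under 4.18, in the dimmest 30% of genes. For these a low level and a change too small for the probe set cannot be told apart.

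Of 15 measured genes of interferon receptors and JAK-STAT signalling, 6 were higher and 3 lower with siKlf4 without TGFβ (40% and 20%, against 9.98% and 9.71% of all genes), and again 6 and 3 with TGFβ (against 12.3% and 11.9%), with medians of 0.32 and 0.27. With single arrays left out, the higher genes ran from 5 to 7 without TGFβ and from 4 to 6 with it, 4 without either siControl+TGFβ array or siKlf4+TGFβ replicate 1, and the lower genes from 2 to 3 and from 2 to 4.

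Jak2, a kinase of the interferon gamma receptor, stood at 11.11 and 11.01 in siControl, 11.81 and 11.73 in siKlf4, 11.34 and 11.26 in siControl+TGFβ, and 12.01 and 12.04 in siKlf4+TGFβ. All its siKlf4 arrays were above all siControl arrays, with differences of 0.71 (SE 0.08, adjusted p = 2.7e-04) and 0.73 (SE 0.08, adjusted p = 1.6e-04). Ifngr2, the signalling chain of that same receptor, stood at 11.30 and 11.25 in siControl, 10.47 and 10.49 in siKlf4, 10.76 and 10.84 in siControl+TGFβ, and 10.14 and 10.23 in siKlf4+TGFβ. It was lower with siKlf4 under both conditions, with differences of -0.80 (SE 0.08, adjusted p = 1.1e-04) and -0.61 (SE 0.08, adjusted p = 3.8e-04). The kinase and the receptor chain therefore moved in opposite directions.

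Ifnar1, a chain of the type I interferon receptor, was at 8.46 and 8.34 in siControl, 8.88 and 8.86 in siKlf4, 8.67 and 8.70 in siControl+TGFβ, and 9.31 and 9.32 in siKlf4+TGFβ. It was higher with siKlf4 by 0.48 (SE 0.08, adjusted p = 0.0022) and 0.63 (SE 0.08, adjusted p = 3.0e-04). Its partner Ifnar2 ranged from 7.92 to 8.55, and its difference was 0.25 without TGFβ, which was not called, and 0.45 with it (SE 0.10, adjusted p = 0.012), lost without either siControl+TGFβ array or siKlf4+TGFβ replicate 1 (adjusted p from 0.061 to 0.096). Socs3, a feedback inhibitor of JAK kinases, stood at 8.78 and 8.68 in siControl, 8.10 and 8.12 in siKlf4, 8.35 and 8.40 in siControl+TGFβ, and 7.69 and 7.72 in siKlf4+TGFβ. Its siKlf4 arrays were all below its siControl arrays, with differences of -0.62 (SE 0.08, adjusted p = 4.5e-04) and -0.67 (SE 0.08, adjusted p = 2.0e-04). The calls of Jak2, Ifngr2, Ifnar1 and Socs3 with siKlf4 remained without each array in turn.

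**Figure D4:**
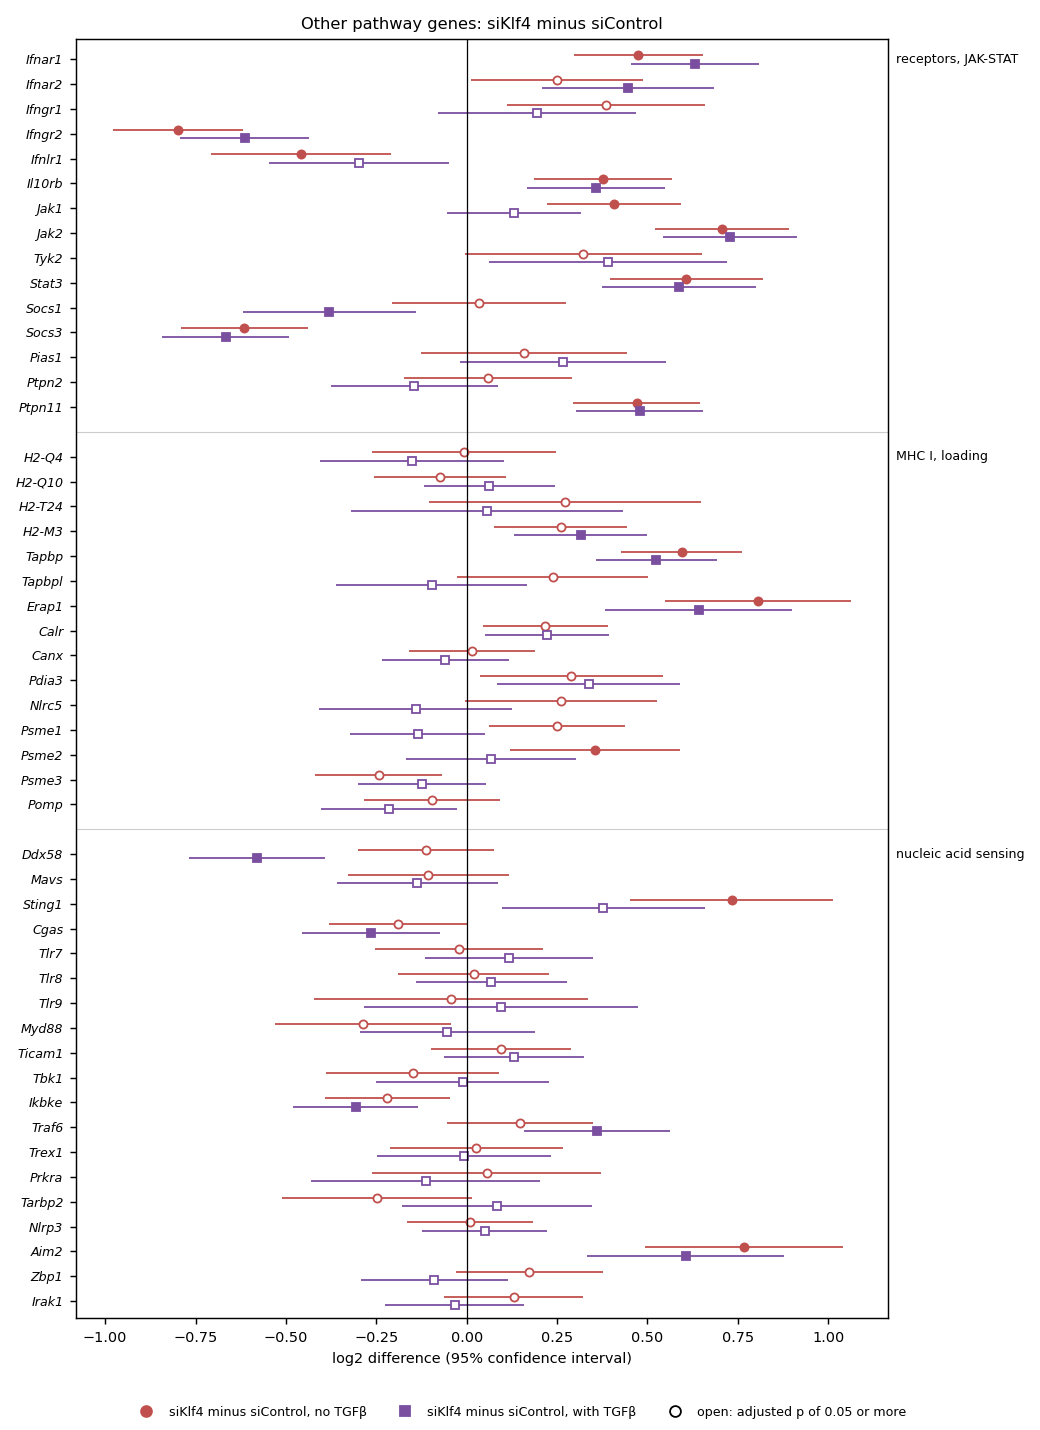
Log2 difference between the arrays labelled siKlf4 and siControl for measured genes of the interferon receptors and JAK-STAT signalling, of MHC class I and peptide loading, and of nucleic acid sensing, without TGFβ (circles) and with TGFβ (squares), with 95% confidence intervals from limma and filled symbols at an adjusted p under 0.05. Ifnar1, Jak2, Stat3, Tapbp and Erap1 lie to the right in both comparisons, and Ifngr2 and Socs3 to the left.

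Of 19 further genes of nucleic acid sensing, 2 were higher and 0 lower with siKlf4 without TGFβ (10.5% and 0%, against 9.98% and 9.71% of all genes). Without TGFβ, 2 of the 19 were lower at an unadjusted p under 0.05 in limma, and the ordinary analysis of variance called 1 lower. With TGFβ, 2 were higher and 3 lower with siKlf4 (10.5% and 15.8%, against 12.3% and 11.9%), which became 1 and 1 when any of the 4 arrays with TGFβ was left out. Apart from the 0 lower, these shares lie near those of all genes. Aim2, a sensor of cytosolic DNA, stood at 7.10 and 6.86 in siControl, 7.89 and 7.60 in siKlf4, 7.19 and 7.29 in siControl+TGFβ, and 7.90 and 7.79 in siKlf4+TGFβ, and was higher with siKlf4 by 0.77 (SE 0.12, adjusted p = 0.0017) and 0.61 (SE 0.12, adjusted p = 0.0051). Sting1, the adaptor of the cyclic dinucleotide pathway, stood at 6.20 and 5.89 in siControl, 6.69 and 6.86 in siKlf4, 5.47 and 5.34 in siControl+TGFβ, and 5.68 and 5.88 in siKlf4+TGFβ. It was higher with siKlf4 without TGFβ (0.73, SE 0.12, adjusted p = 0.0025) and lower with TGFβ in siControl (-0.64, SE 0.12, adjusted p = 0.010) and in siKlf4 (-0.996, SE 0.12, adjusted p = 8.6e-04), the difference in siControl being lost without siControl replicate 1 or siControl+TGFβ replicate 2 (adjusted p = 0.059 and 0.083). Between TGFβ and no TGFβ, 4 of the 19 were lower in siControl and 5 in siKlf4 (21.1% and 26.3%, against 6.65% and 6.87% of all genes), among them Myd88, the adaptor of most Toll-like receptors (-0.84 and -0.61), and Tarbp2, a partner of PKR and Dicer (-0.81 and -0.48). The 4 became 2 without siControl replicate 1 or siControl+TGFβ replicate 2, and the 5 became 1 without siKlf4+TGFβ replicate 1. Without that array Myd88 in siKlf4 was not called (adjusted p = 0.058), and Tarbp2 in siKlf4 was not called without it, siKlf4 replicate 2 or siKlf4+TGFβ replicate 2 (adjusted p from 0.089 to 0.17). By the ordinary analysis of variance, Aim2 with TGFβ, Sting1 without TGFβ and in siControl, Myd88 in siKlf4 and Tarbp2 were not called.

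A wider set of 50 measured interferon-stimulated genes outside the members had calls in both directions. With siKlf4, 6 were higher and 6 lower without TGFβ (12% each, against 9.98% and 9.71% of all genes), and 7 were higher and 12 lower with it (14% and 24%, against 12.3% and 11.9%), with medians of 0.04 and -0.03. With TGFβ the 7 became 3 without siControl+TGFβ replicate 1 or siKlf4+TGFβ replicate 2, and the 12 became 8 or more, 8 without siKlf4+TGFβ replicate 1. Cmpk2, a mitochondrial nucleotide kinase, stood at 5.29 and 5.11 in siControl, 4.03 and 4.39 in siKlf4, 5.46 and 5.32 in siControl+TGFβ, and 4.13 and 4.44 in siKlf4+TGFβ, a fall of -0.99 (SE 0.14, adjusted p = 0.0010) and -1.11 (SE 0.14, adjusted p = 4.0e-04). Irgm1, an immunity-related GTPase, stood at 8.61 and 8.25 in siControl, 9.59 and 9.46 in siKlf4, 8.61 and 8.66 in siControl+TGFβ, and 9.69 and 9.69 in siKlf4+TGFβ, a rise of 1.10 (SE 0.12, adjusted p = 1.7e-04) and 1.05 (SE 0.12, adjusted p = 1.5e-04). Slfn2, of the Schlafen family, was lower with siKlf4 by differences of -0.80 (SE 0.11, adjusted p = 8.3e-04) and -1.08 (SE 0.11, adjusted p = 9.1e-05). Dtx3l, a ubiquitin ligase that works with Parp9, was lower with TGFβ than without it, by differences of -1.10 in siControl (SE 0.13, adjusted p = 8.4e-04) and -0.86 in siKlf4 (SE 0.13, adjusted p = 0.0022).

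NF-κB also acts on B2m, Irf1, Vcam1 and Icam1, so its own genes were read beside the members. With siKlf4, B2m was higher under both conditions and Irf1 only without TGFβ. Vcam1 was lower with TGFβ (-1.17) and Icam1 was not called. Whether NF-κB had a part in these differences was not tested. Of 18 measured NF-κB subunits and targets, 6 were higher and 1 lower with siKlf4 without TGFβ (33.3% and 5.56%, against 9.98% and 9.71% of all genes), and 9 were higher and 1 lower with it (50% and 5.56%, against 12.3% and 11.9%), with medians of 0.22 and 0.29. Tnfaip3, or A20, an inhibitor of NF-κB that NF-κB itself induces, stood at 7.77 and 7.54 in siControl, 9.30 and 9.29 in siKlf4, 7.69 and 7.58 in siControl+TGFβ, and 9.38 and 9.42 in siKlf4+TGFβ. The rise was 1.64 (SE 0.09, adjusted p = 5.0e-06) and 1.76 (SE 0.09, adjusted p = 2.1e-06), with no overlap of arrays. Nfkbia, the classical NF-κB inhibitor, stood at 7.76 and 7.44 in siControl, 7.83 and 8.06 in siKlf4, 7.90 and 7.75 in siControl+TGFβ, and 8.70 and 8.76 in siKlf4+TGFβ. On the arrays with TGFβ it was higher with siKlf4 than with siControl by 0.90 (SE 0.13, adjusted p = 6.2e-04), and without TGFβ that difference was 0.34, which was not called. Nfkbie, a relative of it, was higher with siKlf4 than with siControl by 0.81 without TGFβ (SE 0.10, adjusted p = 3.8e-04) and by 0.38 with it (SE 0.10, adjusted p = 0.021), the second call being lost when any of the 4 arrays with TGFβ was left out (adjusted p from 0.071 to 0.12). Tnfaip2 was lower on the TGFβ arrays than on those without TGFβ, by differences of -0.72 in siControl and -0.88 in siKlf4. The 9 became 6 without siControl+TGFβ replicate 2 or siKlf4+TGFβ replicate 2, and the 1 lower with TGFβ became 0 without either siControl+TGFβ array or siKlf4+TGFβ replicate 1.

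Of 7 measured genes of MHC class II and the invariant chain, 0 were called with siKlf4 without TGFβ by limma, by an unadjusted p under 0.05 (0) or by the ordinary analysis of variance (0), and 1 was higher with siKlf4 on the arrays with TGFβ (14.3%, against 12.3% of all genes). That gene was H2-DMa, a peptide exchange chaperone of class II, with a difference of 0.48 (SE 0.11, adjusted p = 0.013) on values between 3.82 and 4.64 over the 8 arrays, a call lost without siControl+TGFβ replicate 2 or siKlf4+TGFβ replicate 2 (adjusted p = 0.086 and 0.12).

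Markers of other cells were read on the same arrays. The summed log2 value of 8 epithelial markers ran from 72.0 to 73.0 in siControl and from 72.9 to 74.1 in siKlf4, and with TGFβ from 72.6 to 72.8 and from 73.5 to 73.5. The sum hides calls in both directions. With siKlf4, Krt7 (1.11 without and 0.82 with TGFβ), Krt18 (0.54 and 0.55) and Krt8 (0.30 and 0.36) were higher and Krt19 was lower (-0.99 and -1.04). In siKlf4, Cdh1, or E-cadherin, was higher with TGFβ than without it (0.67, SE 0.08, adjusted p = 6.1e-04) and Krt7 lower (-0.36, adjusted p = 0.043). In siControl, Cdh1 had means of 10.36 without and 10.62 with TGFβ and was not called. For protein, the paper reports a loss of E-cadherin from cell membranes under TGFβ. Whether the Cdh1 values bear on the TGFβ label was not tested. Epcam stood between 3.88 and 4.09 on the 8 arrays, in the dimmest 30% of genes. The summed value of 8 measured leukocyte markers (of 9 listed) ran from 36.0 to 36.4 in siControl, 37.0 to 37.4 in siKlf4, 35.9 to 36.1 in siControl+TGFβ and 36.8 to 37.0 in siKlf4+TGFβ, with the siKlf4 ranges above the siControl ranges. Of those 8, Csf1r was higher with siKlf4 without TGFβ, Csf1r and Cd68 were higher with it (1.002 and 0.61), and the other 6, with Ptprc and Itgam among them, were not called. Ptprc, Itgam, Lyz2 and Cd79a had mean log2 values under 4.18, in the dimmest 30% of genes. Cd68 was lower with TGFβ than without it, by differences of -1.30 in siControl and -1.09 in siKlf4. Csf1r was higher with TGFβ in siKlf4 (0.84). The part of the leukocyte markers in the results was not tested. Of 5 endothelial markers, 0 were called by limma in any comparison or by the ordinary analysis of variance (at an unadjusted p under 0.05, between 0 and 1 in each direction), with summed values from 19.4 to 20.1 without TGFβ and from 19.5 to 19.9 with it. Of 5 fibroblast markers 1, Col1a1, was higher with siKlf4 (1.13 without and 0.65 with TGFβ), and none was called between TGFβ and no TGFβ. With siKlf4, of 4 plasmacytoid dendritic markers, Tcf4 was higher under both conditions (0.54 and 0.49) and Ccr9 lower without TGFβ.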

How the data were processed

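Affymetrix gene arrays of NMuMG RNA were used, 8 in all and 2 per group. The authors normalized the raw intensities with RMA (oligo 1.14.0 is named in the submitters' processing notes), and the deposited values are 1 log2 value per probe set and array. The log2 base was read from their range. A one-way analysis of variance is the test in the study's methods. Quantile normalization within RMA evens out the arrays, so only changes relative to other genes can be seen.

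The platform's annotation named the probe sets, and 21640 of the 34760 carry 1 symbol. The fit used R 4.3.3 and limma 3.58.1, with 1 mean per group over 8 arrays, eBayes (residual degrees of freedom 4, prior 4.93) and Benjamini-Hochberg adjustment over 19937 genes. It was tested on simulated data. The members and gene lists were chosen with earlier results of these data known. Every member with a call is given on every array, and of each other list up to 4 genes with the largest called difference are named. 20 alternatives were run. The number of arrays limits the precision. Klf4 binding data were not analysed here.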

Additional observations from a re-analysis of the deposited data

Results flagged for a closer look

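3 members had a siKlf4 difference with TGFβ that differed from the one without TGFβ by a test of the difference itself, the interaction in limma. Its value was -1.32 on the log2 scale for Gbp4 (adjusted p = 0.0079), -1.33 for Vcam1 (adjusted p = 0.036) and -0.74 for Ifit2 (adjusted p = 0.043). Gbp4 lost this call without siKlf4+TGFβ replicate 2 (adjusted p = 0.052), Vcam1 without any of 7 arrays and Ifit2 without any of the 8. Groups of 2 arrays are too small to look for outlying arrays.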

How the results depend on the processing

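Of 40 calls of members over the 5 comparisons, 9 remained under every alternative run for them, and 0 turned their direction. The counts of members that moved by over 1.5 times were as follows. With siKlf4 without TGFβ, 7 members were higher, and 3 with a 1.5-fold limit added. The 5 lower became 2 with only the arrays compared, 2 by the ordinary analysis of variance, 3 with array weights, 2 at a threshold of 0.01, 1 with the 1.5-fold limit, and 3 to 4 with 1 array left out (4 only without siKlf4 replicate 1). With siKlf4 and TGFβ, the 7 higher became 4 by the ordinary analysis of variance, 4 at 0.01 and 3 with the 1.5-fold limit. Leaving out 1 array gave 3 to 8: 4 without siControl+TGFβ replicate 2, and 3 without siKlf4+TGFβ replicate 1 or siKlf4+TGFβ replicate 2. With TGFβ in siControl, the 3 higher became 5 with trended and robust eBayes, 5 with quantile normalization, 5 without the dimmest 30% of genes, and 1 to 4 with 1 array left out. The 5 lower became 2 by the ordinary analysis of variance, 2 at 0.01, 0 with the 1.5-fold limit, and 2 to 6 with 1 array left out. With TGFβ in siKlf4, the 6 lower became 3 with only the arrays compared, 3 by the ordinary analysis of variance, 2 at 0.01, 1 with the 1.5-fold limit, and 2 to 4 with 1 array left out. In the interaction the 3 lower became 0 by the ordinary analysis of variance, 1 at 0.01, and 0 to 2 with 1 array left out. The cause was not tested, except that a stricter limit passes fewer genes by construction. The ordinary analysis of variance called 0 of all 19937 genes in the interaction, so its 0 there is not particular to the members.

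Deviations of same-numbered arrays correlated at 0.38 for siControl and siKlf4 without TGFβ and between -0.05 and 0.04 for the other 5 pairs of groups. The arrays without TGFβ thus shared a replicate difference. Their medians were 4.90 and 4.92 for replicate 1, and 4.997 and 5.002 for replicate 2, in siControl and siKlf4. The main fit leaves this out, and the replicate block holds the same shift for all groups, so a shift in these arrays alone was not fitted. With a replicate block, 4 members were higher with TGFβ in siControl (Ifit2 was added) and 5 lower in siKlf4 (Parp14 was added, Irf1 and Adar were lost), and the other counts kept their values.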
